A study of Caenorhabditis elegans with 2 samples.

Results

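The genes described here are 10 genes of GABA neuron identity and function in Caenorhabditis elegans, out of 19973 protein-coding genes in Ensembl release 115. They were chosen by function: unc-25 for synthesis, unc-47, unc-46 and snf-11 for transport, unc-30 and tab-1 for neuron identity, and unc-49, exp-1, gbb-1 and gbb-2 for reception of GABA. Earlier results of these data were known when they were chosen. For each gene, all regions of LIM-6 ChIP-seq signal were taken that lay between 5 kb upstream of the gene and 1 kb past its end. These stretches, called windows here, covered 126 kb in all.

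LIM-6 carrying a C-terminal GFP-FLAG tag was immunoprecipitated with an anti-GFP antibody from whole hermaphrodites of strain OP388, genotype unc-119(ed3) III; wgIs388. Animals were late embryos, 5 hours after egg bleaching, and chromatin was sheared by sonication. The 2 libraries are labelled biological replicates 1 and 2 of 1 group. There is therefore no contrast between conditions and no test, and control libraries were not analysed here. The tagged protein came from a transgene, and the libraries were made from whole animals. A site bound strongly in few cells and a site bound weakly in many cells cannot be told apart in such signal, and a region says nothing of the expression of the gene beside it.

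GABA is the main inhibitory transmitter of the worm, and it acts on body wall muscle to relax it during movement and on enteric muscle during defecation. GABA neurons make it with a glutamic acid decarboxylase, load it into synaptic vesicles with a dedicated transporter, and take it up again across the plasma membrane. Different homeodomain transcription factors set this identity in different neurons, among them the Pitx-type factor UNC-30 in D-type motor neurons. The LIM homeodomain factor LIM-6 is known to act in a few other GABA neurons, such as DVB, AVL and RIS. Whether each of these neurons was already present in the late embryos used here was not examined.

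The regions come from 4 lists in the ce11 build. The 2 library lists and the pooled list are relaxed lists, which hold peaks together with background, with 21953 regions in replicate 1, 27731 in replicate 2 and 25887 in the pooled list. The list of reproducible peaks, which passed the authors' test of the irreproducible discovery rate, holds 570 regions. Signal is the authors' value for a region, and its unit was not given in the sources used here. At the 12026 pooled regions that overlapped both libraries, pooled signal was a median of 0.969 times the sum of the matched library signals. It thus ran close to a sum of the libraries, and is not read here as an enrichment free of read depth. The median signal was 27.9 in the pooled list, and single-library lists run at lower values (medians 16.6 and 15.9). Ranks count from 1 for the highest signal of a list. Read depth is unknown, so error is judged here mainly by the agreement between the libraries. The authors also give a −log10 q-value for each region, where a higher value means stronger evidence.

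The sequences below carry the regions on which the results turn. Each window spans 201 bases around a summit and is written 5′ to 3′ on the strand of the gene it is listed under, from the RefSeq copy of the same assembly. Capitals mark TAATTA (a LIM homeodomain core), TAATCC (the UNC-30 type of site) or GAGAGA, read on either strand. The first pair are the regions of highest pooled signal in any of the windows, both at unc-25, at chrIII:12944730-12944930 and chrIII:12942376-12942576 on the plus strand.
unc-25 intron: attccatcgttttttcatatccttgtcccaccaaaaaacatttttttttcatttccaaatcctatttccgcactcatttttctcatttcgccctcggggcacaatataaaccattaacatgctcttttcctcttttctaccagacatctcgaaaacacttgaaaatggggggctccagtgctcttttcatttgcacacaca
unc-25 upstream: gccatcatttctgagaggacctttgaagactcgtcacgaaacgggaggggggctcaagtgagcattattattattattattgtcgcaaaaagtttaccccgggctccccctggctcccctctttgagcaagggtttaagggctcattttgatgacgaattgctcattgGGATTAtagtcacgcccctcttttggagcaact
The next pair are the only pooled summit windows at the 10 genes that hold TAATTA, at chrIV:4510362-4510562 on the minus strand and chrIV:13123257-13123457 on the plus strand.
gbb-2 upstream, in rfth-1: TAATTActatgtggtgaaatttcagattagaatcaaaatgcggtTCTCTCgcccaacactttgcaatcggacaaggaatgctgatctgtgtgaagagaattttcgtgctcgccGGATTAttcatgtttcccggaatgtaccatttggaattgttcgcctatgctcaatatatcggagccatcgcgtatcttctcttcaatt
unc-30 intron: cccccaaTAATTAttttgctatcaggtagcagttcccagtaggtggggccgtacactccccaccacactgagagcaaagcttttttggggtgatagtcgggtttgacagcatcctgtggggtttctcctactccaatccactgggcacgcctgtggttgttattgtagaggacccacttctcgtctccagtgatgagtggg
The last pair are the highest TAATCC window after unc-25 and the highest GAGAGA window, both at unc-49, at chrIII:10531892-10532092 and chrIII:10533269-10533469 on the plus strand.
unc-49 intron: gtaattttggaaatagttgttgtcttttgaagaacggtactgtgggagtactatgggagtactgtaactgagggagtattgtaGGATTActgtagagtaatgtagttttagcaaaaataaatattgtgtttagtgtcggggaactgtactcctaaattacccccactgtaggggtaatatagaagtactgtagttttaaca
unc-49 past the end: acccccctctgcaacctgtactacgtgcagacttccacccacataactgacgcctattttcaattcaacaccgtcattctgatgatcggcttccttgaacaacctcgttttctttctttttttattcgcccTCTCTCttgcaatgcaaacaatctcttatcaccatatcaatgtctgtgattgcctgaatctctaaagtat

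TAATCC sites also stood close to annotated 5′ ends, and the 250 bases before the 5′ ends of unc-47 (chrIII:10186261-10186510, minus strand) and unc-30 (chrIV:13118727-13118976, plus strand) are shown for that reason, with TAATCC in capitals.
unc-47 promoter: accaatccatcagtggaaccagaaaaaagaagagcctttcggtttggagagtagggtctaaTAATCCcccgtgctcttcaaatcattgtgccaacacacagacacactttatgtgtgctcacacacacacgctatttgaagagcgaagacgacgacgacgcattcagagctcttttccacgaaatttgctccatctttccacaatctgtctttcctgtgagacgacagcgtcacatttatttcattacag
unc-30 promoter: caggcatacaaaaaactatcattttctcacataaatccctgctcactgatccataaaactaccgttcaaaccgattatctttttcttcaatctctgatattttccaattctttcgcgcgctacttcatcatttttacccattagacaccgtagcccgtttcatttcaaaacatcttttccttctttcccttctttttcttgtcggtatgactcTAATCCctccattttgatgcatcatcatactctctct

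No gene of the 10 had a reproducible peak in its window, whereas 6.38% of all protein-coding genes did. Pooled relaxed regions lay in the windows of 7 genes, beside 80.7% of all protein-coding genes. The 3 without one were unc-46, exp-1 and tab-1. Replicate 1 had a region at 9 of the 10 genes, all but tab-1, beside 80.0% of all genes. Replicate 2 had a region at 7 of the 10, missing unc-46, unc-30 and exp-1, beside 83.8% of all genes. A pooled region that overlapped regions of both libraries was found at 6 of the 10 genes (unc-25, unc-47, snf-11, unc-49, gbb-1 and gbb-2), beside 54.5% of all genes. These counts lay on either side of the shares over all genes, above them in replicate 1 and for regions shared by both libraries, and below them in replicate 2, the pooled list and the reproducible list. No test was made on them, and none of them is read as particular to the GABA genes.

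**Figure D1:**
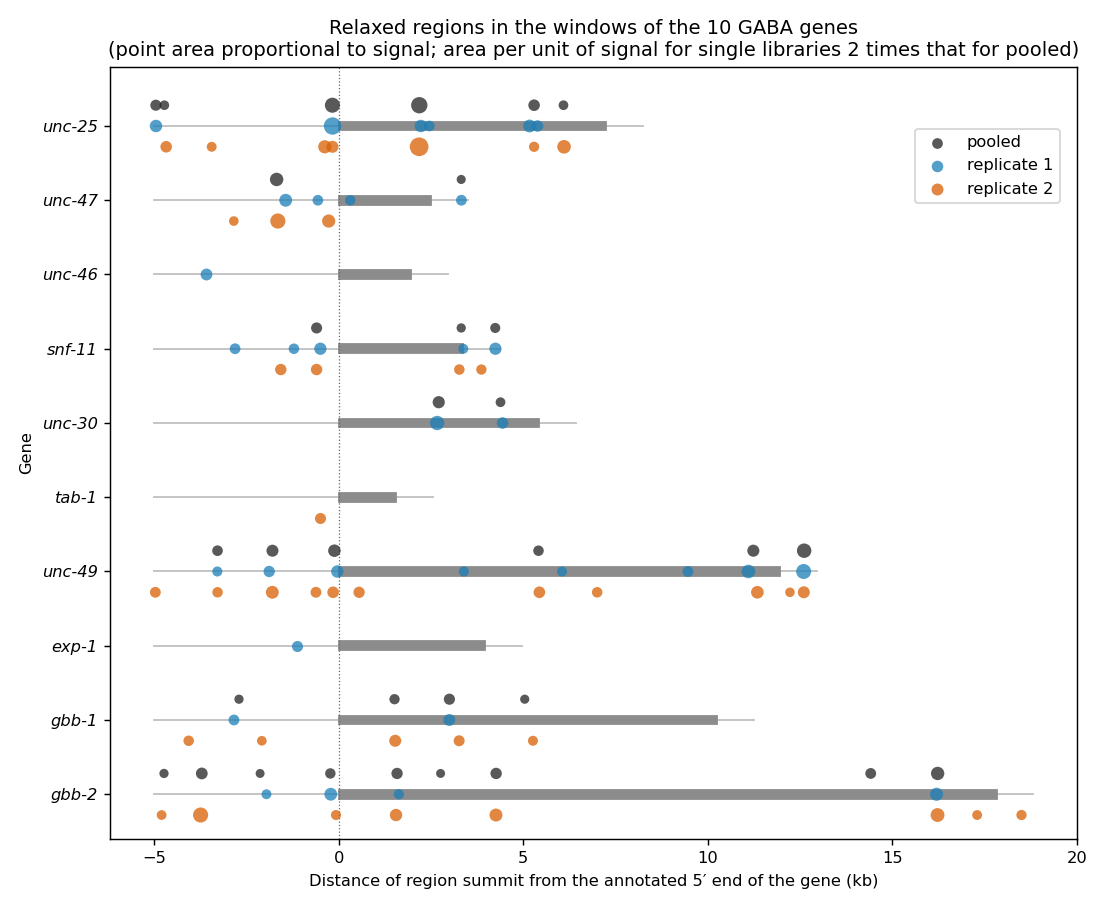
Relaxed regions in the windows of the 10 GABA genes, 1 row a gene, against the distance of the summit from the annotated 5′ end in kb. Points are regions of the pooled list, replicate 1 and replicate 2, with area proportional to signal, the thick bar is the gene and the thin line its window. The largest pooled points are at unc-25, and unc-46, exp-1 and tab-1 have a region in a single library only.

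The windows held 32 pooled regions, or 0.254 per kb, compared with 0.271 per kb over the windows of all protein-coding genes. Their median signal was 30.7, beside 27.9 for all regions paired with a gene. Of the 32 regions, 19 were at or above the median of the pooled list, which is 59.4%, beside 49.9% over all genes. Both libraries had an overlapping region at 18 of the 32, or 56.3%, compared with 46.5% of all pooled regions. The 18 include an overlapping pair in the unc-25 window that matched the same library regions. A further 12 had a region in a single library and 2, both at gbb-2, in neither.

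Most of the 32 summits did not lie at promoters of the GABA genes. Introns held 15, of which 13 were introns of the GABA gene itself, coding exons 8, intergenic sequence 8 and a 3′ UTR 1. Another gene's 5′ end was nearer than that of the GABA gene for 12 summits. Some of these lay close to that other 5′ end, such as those 18 bp from ZK180.7 and 23 bp from rfth-1. The shares of these classes over all pooled regions were not computed, so the counts describe position only. In the promoter window, from 1000 bp upstream to 500 bp downstream of a transcript 5′ end, 5 of the 10 genes had a pooled region, beside 46% of all genes. These were unc-25, snf-11, unc-30, unc-49 and gbb-2.

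Synthesis is represented by unc-25 (WBGene00006762, chromosome III, 12942651 to 12949883, plus strand), which encodes glutamic acid decarboxylase, the enzyme that makes GABA. It had 6 pooled regions, or 0.453 per kb, the highest density of the 10 genes, but only 2 of the 6 had unc-25 as the nearest 5′ end. The 6 include an overlapping pair in coding sequence of epg-3 that matched the same library regions. The 2 regions of highest signal in any of the windows were also at unc-25. The first, at chrIII:12944618-12945041, had its summit in an unc-25 intron, 2179 bp downstream of the 5′ end, with a pooled signal of 68.5, rank 874, above 96.6% of pooled regions. Its signal was 20.02 in replicate 1, rank 6072, and 44.8 in replicate 2, rank 525. The intronic site was thus above 98.1% of the regions of replicate 2 but above only 72.3% of those of replicate 1.

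The second unc-25 region, at chrIII:12942264-12942687, had its summit in intergenic sequence 175 bp upstream of the 5′ end. Its pooled signal was 58.0, rank 1384, above 94.7% of pooled regions. It had 38.7 in replicate 1, rank 649, and 18.5 in replicate 2, rank 9198. Here the libraries stood the other way round, with the higher signal in replicate 1. Replicate 2 had another region, with its summit 381 bp upstream of the gene and a signal of 22.5.

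The promoter summit window printed above holds TAATCC, as GGATTA, starting 107 bp upstream of the 5′ end of unc-25. A further TAATCC starts 57 bp upstream, outside that window but inside the pooled region. The intronic window holds none of the 3 motifs. The third unc-25 region, at chrIII:12947729-12948152 in a coding exon, had a pooled signal of 34.2, rank 7256, with 16.9 in replicate 1, rank 10425, and 13.5 in replicate 2, rank 20578. A further replicate 1 region overlapped it, with a higher signal of 21.2, rank 4990, but a more distant summit. Of the other 3 pooled regions, those with summits 4959 and 4728 bp upstream lay in coding sequence of epg-3 and shared their library regions. The −log10 q-values of the 2 highest regions were 2.40 and 1.72. Most other genes had much lower values at their highest pooled region. These were 1.32 at unc-49, 0.79 at unc-47, 0.75 at gbb-2, 0.41 at unc-30, 0.21 at gbb-1 and 0.20 at snf-11. The lowest value of a pooled region in these windows was 0.0195, at gbb-2.

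The reproducible list began above all of these. Its lowest signal was 80.0, which is 1.17 times the signal of the intronic unc-25 region. In the ce10 build the authors' reproducible list was longer, with 858 peaks and a lowest signal of 68.9, and the unc-25 intronic region, at 68.5 in ce11, lay just outside that value as well. Ce10 coordinates were not used, so this sets side by side only signals and numbers.

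**Figure D2:**
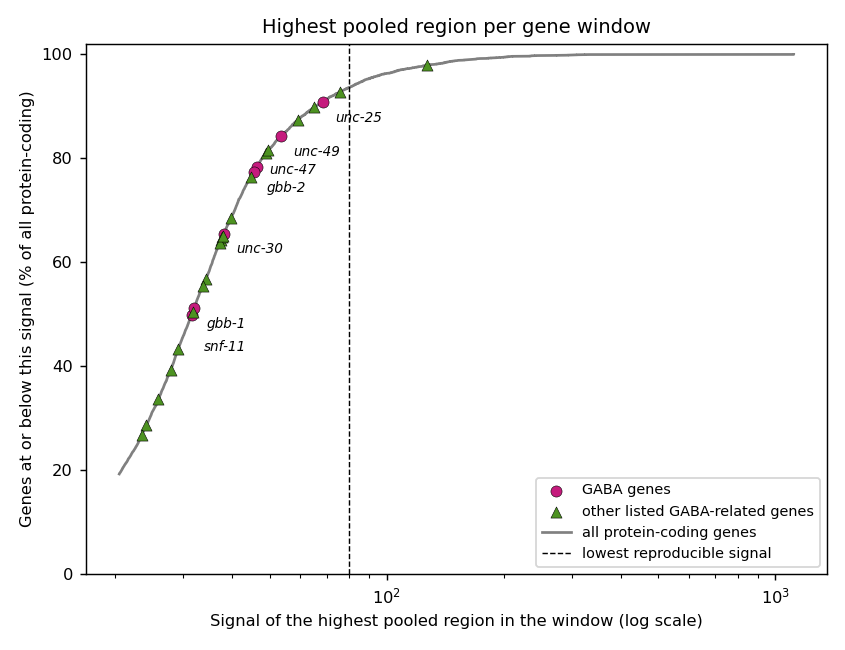
Signal of the highest pooled region in the window of each gene (horizontal, log scale) against the percentage of all protein-coding genes at or below it (vertical). Circles are the 7 GABA genes with a region, triangles the other listed GABA-related genes, the line all protein-coding genes, and the dashed line marks the lowest reproducible signal, 80.0. The circles run up to 68.5 at unc-25 and all stay left of the dashed line, and lim-6, at 127, is the one triangle to the right of it.

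Transport covers 3 genes. The vesicular GABA transporter gene unc-47 (WBGene00006783, chromosome III, 10183762 to 10186260, minus strand) had 2 pooled regions. The higher, at chrIII:10187734-10188157, had a pooled signal of 46.2, rank 2694, with 21.3 in replicate 1 and 29.4 in replicate 2. Both libraries had an overlapping region, with summits 245 bp (replicate 1) and 33 bp (replicate 2) from the pooled one. The replicate 1 summit was nearest to the 5′ end of unc-47, at 1441 bp, so the site was not placed alike in both. The pooled summit, 1686 bp upstream of unc-47, was nearer to the 5′ end of epac-1, at 1266 bp, and lay within 250 bp of the noncoding gene T20G5.16. The other, at chrIII:10182733-10183156 in an intron of mua-3, had a pooled signal of 21.2, rank 24211, and a region in replicate 1 only, of 14.9.

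Closer to the 5′ end of unc-47, regions appeared in single libraries and not in the pooled list. Replicate 2 had one with its summit 276 bp upstream and a signal of 22.2, rank 5103. Replicate 1 had summits 569 bp upstream and 309 bp downstream, with signals of 14.5 and 13.99. The TAATCC of the unc-47 promoter, which starts 189 bp upstream, lies inside the replicate 2 region, chrIII:10186321-10186750.

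The LAMP-like protein UNC-46 sorts UNC-47 to synaptic vesicles. Its gene unc-46 (WBGene00006782, chromosome V, 5097075 to 5099025, minus strand) had no pooled region. Replicate 1 alone had a region, of signal 18.0 and rank 8579, with a summit 3606 bp upstream of unc-46 and 514 bp upstream of srab-1. No region thus lay near the 5′ end of unc-46 in either library.

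The plasma membrane GABA transporter gene snf-11 (WBGene00004910, chromosome V, 11305070 to 11308446, minus strand) had 3 pooled regions, each overlapping both libraries. The highest, at chrV:11308837-11309260, had its summit 603 bp upstream and a pooled signal of 31.5, rank 9288, with 19.2 in replicate 1 and 16.8 in replicate 2. The second, at chrV:11303997-11304420 in coding sequence of srh-45, had a pooled signal of 26.1, rank 15236, with 19.2 in replicate 1 and 13.6 in replicate 2. The replicate 2 summit lay 375 bp from the pooled one, so these regions met only at their edges. The third, at chrV:11304919-11305342 in the 3′ UTR of snf-11, had 22.1, rank 22312, with 12.9 in replicate 1 and 14.2 in replicate 2. Even the highest of the 3 stood above only 64.1% of pooled regions.

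The nearest reproducible peak to any of the windows was also at snf-11. It lay 0.635 kb outside the window, at chrV:11314081-11314328, with a pooled signal of 305, rank 7, and library signals of 149 in replicate 1 and 156 in replicate 2. Its summit was within 250 bp of the snoRNA gene T03F7.8 and the noncoding gene T03F7.14, and the nearest protein-coding 5′ end was that of cutl-18, 2688 bp away. For the other 9 genes the nearest reproducible peak was between 21.3 kb (tab-1) and 115 kb (unc-30) from the window.

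Identity is represented by the transcription factor genes unc-30 and tab-1. The gene of the Pitx-type homeodomain factor, unc-30 (WBGene00006766, chromosome IV, 13118977 to 13124406, plus strand), had 2 pooled regions. The higher, at chrIV:13121471-13121894, had its summit in coding sequence 511 bp downstream of an alternative 5′ end of unc-30, with a pooled signal of 38.1, rank 5122. Replicate 1 had a signal of 26.4 there, rank 2291, and replicate 2 had no region anywhere in the unc-30 window. Regions at unc-30 were therefore listed in a single library. A site under the lowest listed signal of replicate 2, 11.5, would not appear, so absence of signal there is not shown.

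The second unc-30 region, at chrIV:13123145-13123568 with its summit in an intron 4380 bp from the 5′ end, had a pooled signal of 24.4, rank 17981, and 17.1 in replicate 1. Its summit window, printed above, has a TAATTA starting 93 bp before the summit, and 60.2% of its 31-mers occur once in the assembly. Of the 32 windows 29 were fully unique, so this is the most repetitive of them. The unc-30 promoter holds TAATCC starting 37 bp upstream of the 5′ end, but no list had a region over that 5′ end.

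The homeobox gene tab-1 (WBGene00006380, chromosome II, 6803324 to 6804863, plus strand) encodes a homeodomain factor of the Bsh type. It had a region in replicate 2 only, of signal 15.7 and rank 14382, with its summit 498 bp upstream of the gene. That signal is under the median of the replicate 2 list, 15.9.

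Reception covers 4 genes. The ionotropic receptor gene unc-49 (WBGene00006784, chromosome III, 10520762 to 10532705, plus strand) encodes subunits of the GABA-gated chloride channel of body wall muscle, made from shared and alternative exons, and has 8 distinct annotated 5′ ends. It had 6 pooled regions, 5 of them overlapping both libraries. The highest, at chrIII:10533157-10533580, had its summit 664 bp past the end of the gene, with a pooled signal of 53.4, rank 1750, above 93.2% of pooled regions. It had 28.7 in replicate 1, rank 1654, and 18.4 in replicate 2, rank 9315. The summits of the 2 libraries lay 14 and 9 bp from the pooled summit, so the site was placed alike in both although its rank was not.

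At the annotated start of unc-49, a region at chrIII:10520429-10520852 with its summit 121 bp upstream had a pooled signal of 40.0, rank 4367, with 19.6 in replicate 1 and 17.2 in replicate 2. The third region, at chrIII:10531780-10532203 in an intron near the end of the gene, 559 bp downstream of an alternative 5′ end, had a pooled signal of 37.3, rank 5505, with 23.6 in replicate 1 and 20.5 in replicate 2. Its window holds a TAATCC, as GGATTA, starting 17 bp before the summit. The remaining regions had signals of 36.97, 28.9 and 28.3, and only the last, in an intron, was missing from a library, replicate 1. At unc-49, then, most regions were shared by the libraries, at moderate signal.

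The excitatory GABA-gated cation channel of the enteric muscles is encoded by exp-1 (WBGene00001373, chromosome II, 6157144 to 6161094, minus strand). It had no pooled region, and replicate 1 alone had a region, of signal 15.7 and rank 12678, with its summit 1125 bp upstream. That signal is under the median of the replicate 1 list, 16.6.

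The metabotropic GABA-B receptor subunits are encoded by gbb-1 and gbb-2. At gbb-1 (WBGene00021528, chromosome X, 2957935 to 2968192, plus strand) there were 4 pooled regions, the highest, at chrX:2960718-2961141, of signal 31.9, rank 8913, in an intron 2995 bp from the 5′ end, with 18.2 in replicate 1 and 15.5 in replicate 2. The replicate 2 summit lay 263 bp from the pooled one. The pooled summit window was 79.5% unique by 31-mers. The second, at chrX:2959231-2959654 in an intron, had a pooled signal of 27.1, rank 14002, and a region in replicate 2 only, of 18.6. The third, at chrX:2955017-2955440 and intergenic, had 21.8, rank 22894, and a region in replicate 1 only, of 15.0. The fourth, of signal 21.6, likewise had a region in a single library, replicate 2. No pooled region lay in a promoter window of gbb-1.

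The longest window was that of gbb-2 (WBGene00022675, chromosome IV, 4488929 to 4506748, minus strand), 23.8 kb, and it held 9 pooled regions. The highest, at chrIV:4490312-4490735, had a pooled signal of 45.5, rank 2827, with 21.9 in replicate 1 and 24.5 in replicate 2. It lay in a gbb-2 intron but 18 bp upstream of ZK180.7, a gene inside gbb-2, with 2 noncoding genes within 250 bp. Its summit window holds 8 overlapping or separate matches of GAGAGA. The libraries ranked it at 4364 (replicate 1) and 3739 (replicate 2), and the 5′ end beside it is not that of gbb-2.

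The second gbb-2 region, at chrIV:4510250-4510673, of pooled signal 35.4 and rank 6525, had its summit in coding sequence of rfth-1, 23 bp from the 5′ end of that gene, and replicate 2 alone had a region there, of signal 29.2 and rank 1992. Its window holds all 3 motifs, with TAATTA starting 100 bp before the summit, at the edge of the window. The third, at chrIV:4502275-4502698 in a gbb-2 intron, had a pooled signal of 33.3, rank 7850, and a region in replicate 2 only, of 21.5. The region next to the 5′ end of gbb-2, with its summit 231 bp upstream, was weak, with a pooled signal of 27.9, rank 13003, and 21.0 in replicate 1 and 13.0 in replicate 2. The other 5 had signals between 20.7 and 32.8.

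Ordered by the highest pooled region, the genes ran from unc-25 (68.5) through unc-49 (53.4), unc-47 (46.2), gbb-2 (45.5), unc-30 (38.1) and gbb-1 (31.9) to snf-11 (31.5). Over these 7 genes the median was 45.5, beside 35.5 over all genes with a region, but the windows of the 10 genes were longer, with a median of 10.7 kb beside 8.03 kb. In replicate 1 the order of highest regions began with unc-25 (38.7), unc-49 (28.7), unc-30 (26.4) and gbb-2 (21.9). In replicate 2 it began with unc-25 (44.8), unc-47 (29.4), gbb-2 (29.2) and unc-49 (21.2). The gene unc-25 came first in both libraries, although at different sites of the gene, and the order of the genes after it did not hold between libraries.

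**Figure D3:**
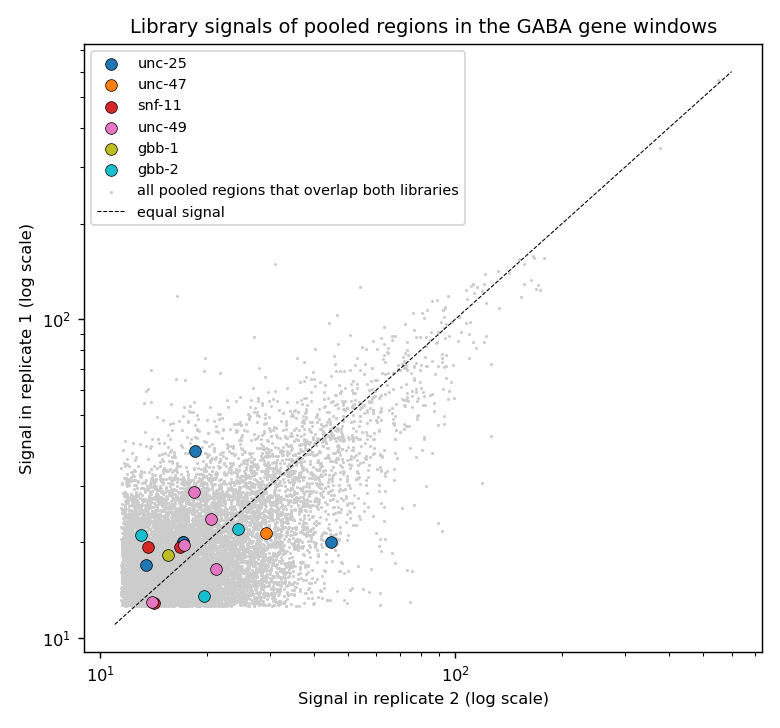
Signal in replicate 1 (vertical) against replicate 2 (horizontal), both on log scales, for pooled regions that overlap both libraries. Large points are the 18 regions in GABA gene windows, coloured by gene, small grey points are all 12026 such pooled regions, and the dashed line marks equal signal. The 2 highest unc-25 regions lie on opposite sides of the line, at 20.02 and 44.8 and at 38.7 and 18.5.

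The library lists gave a like picture when read on their own. Of 33 replicate 1 regions in the windows, 21 overlapped a replicate 2 region, or 63.6%, compared with 52.9% of all replicate 1 regions. Of 39 replicate 2 regions in the windows, 21 overlapped a replicate 1 region, or 53.8%, compared with 43.9% of all replicate 2 regions. Median signals were 16.9 in the windows and 16.6 over the whole list in replicate 1, and 16.4 and 15.9 in replicate 2. In both libraries, the regions near the GABA genes thus had a median signal within 1 unit of that of the whole list.

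TAATTA was found on either strand within 100 bp of a pooled summit at 2 of the 10 genes, unc-30 and gbb-2, beside 17.4% of all genes. Counted over summit windows, 6.25% of those at GABA genes and 7.58% of all pooled windows held it. TAATCC was in 4 of the 32 windows (unc-25, unc-49, gbb-1 and gbb-2), or 12.5%, beside 6.37% of all. GAGAGA was in 8 (unc-47 1, unc-49 3, gbb-2 4), or 25%, beside 17.6% of all. The gbb-2 window in rfth-1 holds both TAATTA and TAATCC, at separate positions, and is counted for each. A match is only a match of letters. The median GC content of the windows was 42.8%, beside 41.3% of all pooled windows.

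In the annotated promoters, from 250 bp before to 50 bp after the 5′ end, TAATCC was present at 3 of the 10 genes, unc-25, unc-47 and unc-30, and at 9.38% of all 19973 promoters. Both the genes and this motif were picked for a known part in GABA neurons, so no conclusion is drawn from that count. TAATTA was present at snf-11 only, and at 15.5% of all promoters, and GAGAGA at unc-30, unc-49, exp-1 and gbb-2, and at 21.8% of all. Of the 3 promoters with TAATCC, that of unc-25 had a pooled region over the site, with overlapping regions in both libraries. That of unc-47 had a region of replicate 2 alone over it, and that of unc-30 had none.

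Another 21 genes tied to GABA neurons were read in the same way, covering GABA breakdown, related channels, transcription factors and synapse organisation. Pooled regions lay in the windows of 20 of them, all but lgc-36, beside 80.7% of all genes, at 0.277 per kb, beside 0.271 per kb over all genes. A reproducible peak lay at 1 of the 21, beside 6.38% of all genes. A pooled region lay in the promoter window of 13 of the 21, beside 46% of all genes, and 15 had one in the gene window that overlapped both libraries, beside 54.5% of all genes. The windows of the 21 genes were longer, however, with a median of 11.3 kb beside 8.03 kb. Counted by region, 32 of 77 pairs of gene and region overlapped both libraries, or 41.6%, beside 46.3% over all genes. The gene with the reproducible peak was lim-6 itself, with 10 pooled regions and a highest signal of 127, rank 165, in its own 5′ UTR, with 67.9 in replicate 1 and 62.4 in replicate 2. The transgene carries lim-6 sequence, and its part in the signal at lim-6 was not tested.

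The next highest among the 21 were lin-2, unc-42 and lgc-38. The gene lin-2, which encodes a MAGUK scaffold protein, had 1 pooled region, in an intron, of signal 75.7 and rank 647, with 39.6 in replicate 1 and 37.9 in replicate 2. The homeobox gene unc-42 had a region with its summit 107 bp upstream of one of its own alternative 5′ ends, of signal 65.1 and rank 1001, with 30.2 in replicate 1 and 31.7 in replicate 2. The channel subunit gene lgc-38 had its highest, 59.0 at rank 1322, in coding sequence of col-8 past its end. These 3 exceeded all GABA genes except unc-25, and lin-2 exceeded unc-25 as well.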

How the data were processed

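Anti-GFP ChIP-seq of whole late embryos gave 2 libraries of 1 group, and every result is descriptive. The files are region lists; the signal value and the −log10 q-value of each region were deposited by the authors, and both library lists were derived from alignments and the same control, per the deposited notes. The aligner and the peak caller were not given in the sources used here, and read depth is unknown, so no interval was computed. Coordinates are ce11, 1-based. All region ends lay inside the chromosomes of WBcel235, the same assembly, whose Ensembl release 115 models gave gene windows, features and 5′ ends. From ce10, only the number and lowest signal of reproducible peaks were taken.

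Regions were assigned to every gene window they overlapped by at least 1 bp. A pooled region was matched in a library to the overlapping region with the nearest summit. Noncoding genes were listed within 250 bp of a summit, and uniqueness is the share of 31-mers found once. Analyses used Python 3.11.15, numpy 2.4.6, pandas 2.3.3 and matplotlib 3.10.9, and were tested on simulated data. Genes, lists and motifs were chosen with earlier results of these data known. Named were all 10 genes with their highest 3 regions in full, genes with the nearest 5′ end, and of the other GABA genes those with a reproducible peak and the next 3 by signal. Sequences were those of the 2 highest regions and the 2 highest with each motif, except 1 that overlaps a 5′ UTR, with 2 promoters chosen after the data were seen. Alternatives covered windows, overlap, signal thresholds, motif distance and single libraries.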

Additional observations from a re-analysis of the deposited data

How the results depend on the processing

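The count of 0 genes with a reproducible peak became 1 (snf-11) with windows from 10000 bp upstream, beside 8.94% of all genes, and was 0 in the other window and assignment alternatives. The 32 pooled regions became 6 in promoter windows, 20 when only summits nearest to the gene's own 5′ end counted, 19 at or above the list median, and 6 among the 5000 highest, where 4 genes had a region beside 34.0% of all genes. With summits within 100 bp, 10 pooled regions matched both libraries (25.9% of all pooled regions) in place of 18. TAATTA was at 0 genes within 50 bp (8.94% of all genes), at 4 within 150 bp (24.3%), and at 1 to 2 genes with a library left out, 1 being without replicate 2. Apart from the library left out, whose cause was not tested, these settings admit fewer or more regions or bases by construction. With 1 library left out, the windows held 33 to 39 regions at 7 to 9 genes. A filter on regions at least 90% unique, chosen after the data were seen, left 29 regions at 7 genes. Of 25 rank values recomputed for the highest region of a gene, 6 moved by more than the median SD between libraries, 8.68 percentage points, and 19 did not, but 7 of the 25, those from 2000 bp upstream, were identical by keeping the same region. That SD was taken from the values with 1 library left out, which are among the 25, so it is no independent yardstick for them. It can also compare different sites of a gene. A further 3 gave no value because no region was left, at unc-30 without replicate 1 and at unc-47 and gbb-1 in promoter windows. In the promoter window of gbb-2 the highest region was another one, 231 bp upstream, above 49.8% of pooled regions, against 89.1% for the intronic region in the full window. No paired analysis was possible because there is 1 group and no contrast. The 2 libraries, their unknown depth and the background in the relaxed lists limit every value, and signals of the pooled and single lists are on different scales.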
